A study of Homo sapiens with 6 samples.

Results

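FASN encodes fatty acid synthase, and ACLY, ACACA, ACACB and ACSS2 encode the enzymes that make its building blocks. These 5 genes were taken by their Ensembl identifiers from a table of 14456 genes, and all 5 were present and tested. The cells were C4-2, a single human prostate cancer cell line that grows without androgen and was derived from LNCaP, cultured in RPMI with fetal bovine serum. One group of 3 libraries came from cells given IPI-9119, a small-molecule inhibitor of fatty acid synthase, at 100 nM, and the other group of 3 from cells given 0.1% DMSO, both for 6 days, and polyadenylated RNA was sequenced. Nothing in the labels states that replicates came from separate cultures. A p-value here therefore reflects how far these 6 libraries spread, and that spread may be technical.

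Fatty acid synthase builds palmitate in the cytosol by adding carbon units from malonyl-CoA to a primer from acetyl-CoA, using NADPH. ATP citrate lyase, the product of ACLY, makes cytosolic acetyl-CoA from citrate exported by mitochondria, and acetyl-CoA synthetase 2, the product of ACSS2, makes it from acetate. The acetyl-CoA carboxylases turn acetyl-CoA into malonyl-CoA: ACACA encodes the cytosolic form that feeds synthesis, and ACACB the form on the mitochondrial surface whose malonyl-CoA blocks fatty acid entry through carnitine palmitoyltransferase. In many prostate cancers fatty acid synthesis is active and FASN is highly expressed, and all these genes are known targets of the sterol regulatory element binding proteins (SREBPs).

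Each library held between 19090749 and 23448035 reads assigned to genes, and the totals were lower in the IPI-9119 libraries, at 19090749 to 20422882, than in the DMSO libraries, at 21952620 to 23448035. The values below are normalised counts, that is, reads per gene after the authors scaled every library by its own size factor. All 9 luminal prostate markers listed were tested, 1 called higher and 8 lower, against 31.3% and 31.4% of all genes (test below). These markers had summed levels of 148189 to 153192 normalised counts in the IPI-9119 libraries and 254776 to 265298 in the DMSO libraries. Of the basal, leukocyte and adipocyte markers 0 of 5, 0 of 5 and 0 of 4 were tested. Of the endothelial, fibroblast and neuroendocrine markers 2 of 4, 4 of 7 and 3 of 5 were tested, with 0, 1 and 1 called higher and 0 lower. Their summed levels were 47.4 to 75.3, 124 to 190 and 163 to 186 normalised counts in the IPI-9119 libraries and 64.2 to 64.4, 130.2 to 152 and 116 to 135 in the DMSO libraries. The fibroblast marker called higher, ACTA2, averaged 16.2 with IPI-9119 and 5.19 with DMSO. It reached the mean of 10 needed for testing only through the IPI-9119 libraries. What part these markers have in the results was not tested. In bulk samples of a cell line, fewer cells that express a marker and less of its RNA per cell cannot be told apart. IPI-9119 replicate 1 stood apart from the other IPI-9119 libraries over all genes, with a chi-square per degree of freedom of 7.40 and 9.57 against them, where those differed from each other by 2.29 and the DMSO pairs by 4.22 to 5.26. Long and GC-rich transcripts were lower in the IPI-9119 libraries. With genes split into 4 equal bins, the median log2 fold change was -0.15 in the longest bin and 0.12 in the shortest, -0.17 in the bin with the highest GC content and 0.083 in that with the lowest. Over all genes tested it was 0.0017.

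Of the 5 enzyme genes, ACSS2 rose 3.98-fold and ACACA rose 1.27-fold, while FASN, ACLY and ACACB did not pass the test. The test was limma on log2(normalised count + 1), two-sided, with an adjusted p (Benjamini-Hochberg over all 14437 genes tested) under 0.05. It called 62.8% of all genes, 31.3% higher and 31.4% lower, so 2 calls among 5 genes are no more than the background. ACSS2 and ACACB were 2 of the 5 for which the groups stood apart in every library, both higher. Over all genes 67.9% stood apart, 34.0% higher and 33.9% lower. Counting models on the recovered reads also called ACSS2 and ACACA, with edgeR calling 62.9% of all genes (31.0% higher, 31.9% lower) and DESeq2 58.6% (29.4% higher, 29.2% lower). A fold change is given on the log2(normalised count + 1) scale, IPI-9119 over DMSO.

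**Figure D1:**
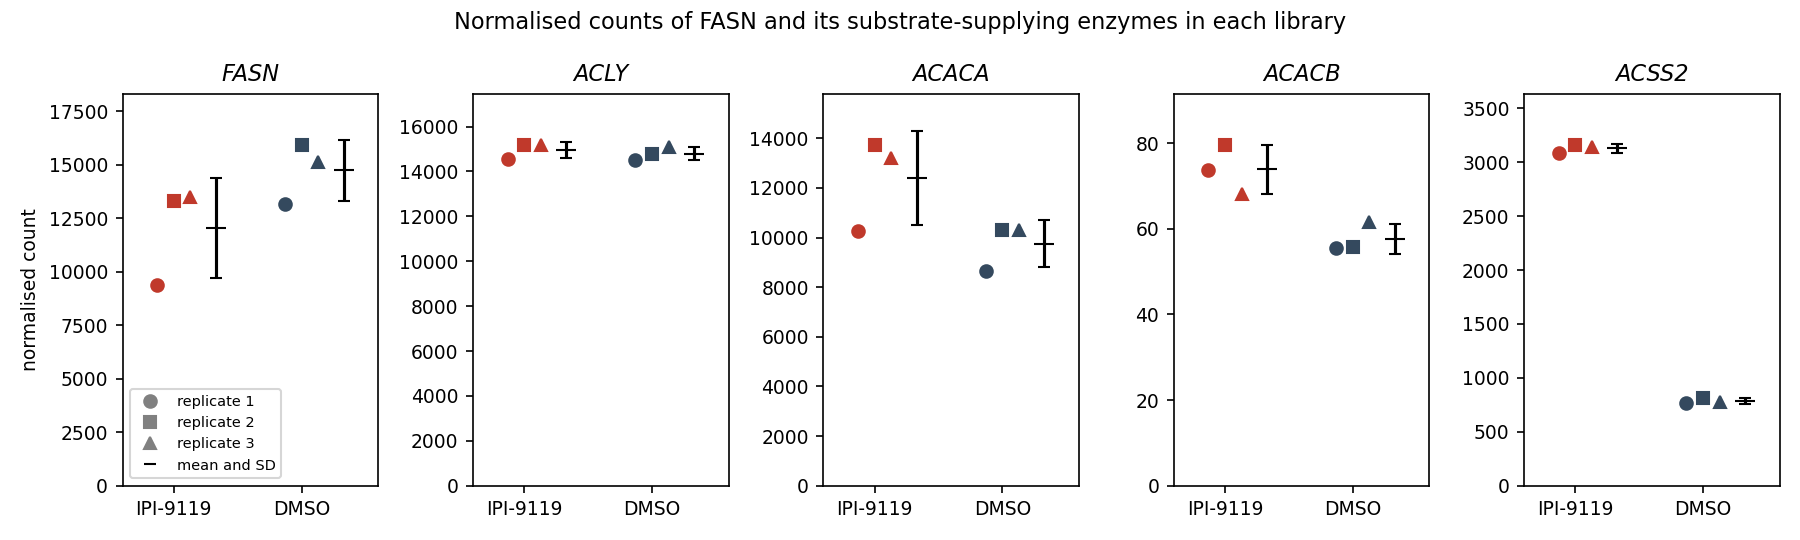
Normalised counts (vertical axes, each starting at 0) of FASN, ACLY, ACACA, ACACB and ACSS2 in the 3 IPI-9119 and 3 DMSO libraries, with marker shapes for replicate numbers and bars for the mean ± SD. ACSS2 sits between 3084 and 3163 in the IPI-9119 libraries and between 768 and 817 in the DMSO libraries, while the groups overlap for FASN, ACLY and ACACA.

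FASN (ENSG00000169710, chromosome 17, 82078333 to 82098332, minus strand, GRCh38, GENCODE 29), the gene of the inhibited enzyme, gave 9365, 13284 and 13511 normalised counts in the IPI-9119 libraries and 13182, 15941 and 15107 in the DMSO libraries. IPI-9119 replicate 1 lay below every other library, and the upper 2 IPI-9119 values lay above the lowest DMSO value. Its transcript took 0.0570% ± 0.0117 of reads with IPI-9119 and 0.0705% ± 0.00711 with DMSO (SD, n = 3). The log2 fold change was -0.31 (95% interval -0.66 to 0.04, adjusted p = 0.112), so both a fall to 0.635 of the DMSO level and no change lie within the interval. Without IPI-9119 replicate 1 the value was -0.13 (adjusted p = 0.0773), and without IPI-9119 replicate 3 it was -0.40 and past the threshold (adjusted p = 0.0225). No other gene annotated in GENCODE 29 overlapped FASN.

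The sign for FASN depended on whether transcript length and GC content were taken into account. FASN has 9364 nt of merged exons and a GC content of 65.3% in its longest transcript, and 13.0% of genes tested were at least as long and 3.04% at least as GC-rich. Only 19 of 14386 genes with both values matched or exceeded FASN in both. A spline fitted in each library to all genes gave a log2 difference of -1.14 between the groups at the length and GC content of FASN. After that trend was subtracted, FASN stood at 15609, 19028 and 18559 corrected counts in the IPI-9119 libraries and at 9561, 9661 and 10479 in the DMSO libraries, with no overlap and a log2 fold change of 0.84 (adjusted p = 2.1e-08). The same correction without the interaction of length and GC gave 0.41 (adjusted p = 9.4e-05), GC content alone 0.055 (adjusted p = 0.674) and length alone -0.090 (adjusted p = 0.386). The p-values after a correction take the fitted trend as exact. They leave out its own error, which was not estimated, and few genes resemble FASN in length and GC content.

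**Figure D2:**
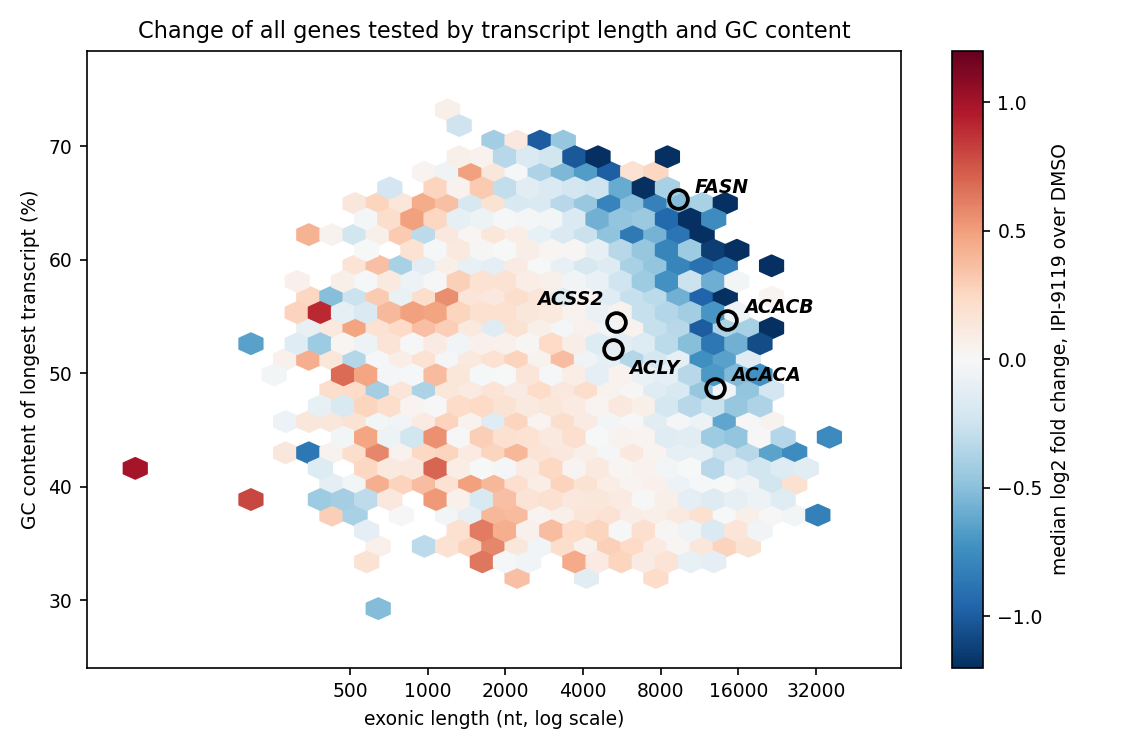
Exonic length (horizontal, nt, log scale) against GC content (vertical, %) for all genes tested, coloured by the median log2 fold change (IPI-9119 over DMSO) of the genes in each hexagon that holds 3 or more, with the 5 enzyme genes circled. FASN lies at 9364 nt and 65.3%, at the sparse upper right edge where medians are negative, and ACLY and ACSS2 lie near the middle.

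ACLY, ATP citrate lyase (ENSG00000131473, chromosome 17, 41866908 to 41930542, minus strand), hardly differed between the groups. It gave 14539, 15161 and 15195 normalised counts in the IPI-9119 libraries and 14502, 14795 and 15072 in the DMSO libraries. The ranges almost coincide, and the spread within each group was small, averaging 14965 ± 369 with IPI-9119 and 14789.6 ± 285 with DMSO (SD, n = 3). The estimate on the log2 scale was 0.017 (95% interval -0.074 to 0.11, adjusted p = 0.745), which leaves room for a change of 1.08-fold upward or to 0.950 of the DMSO level. ACLY has 5217 nt of exons and a GC content of 52.2%, and after the length and GC correction its value was 0.0042 (adjusted p = 0.939). A correction that used the length of the longest transcript in place of merged exons gave 0.13 and passed the threshold (adjusted p = 0.00668). An antisense gene annotated within ACLY shares 156 nt with its exons and was not among the genes analysed.

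ACSS2, which makes acetyl-CoA from acetate (ENSG00000131069, chromosome 20, 34872146 to 34927962, plus strand), rose. Its counts were 3084, 3163 and 3141 in the IPI-9119 libraries and 768, 817 and 772 in the DMSO libraries. Every IPI-9119 library lay far above every DMSO library, averaging 3129 ± 41.0 with IPI-9119 and 786 ± 27.3 with DMSO (SD, n = 3). The log2 fold change was 1.99 (SE 0.053, adjusted p = 2.3e-12), a 3.98-fold rise with a 95% interval of 3.68 to 4.31. A rise at least as large was measured for 354 genes, ACSS2 included, or 2.45% of those tested. After the length and GC correction the value was 2.08 (adjusted p = 2.9e-15), and without any 1 library it lay between 1.98 and 2.02. GGT7, a gamma-glutamyltransferase family gene on the other strand, spans the first annotated bases of ACSS2 without sharing exons with it. GGT7 rose by a log2 fold change of 0.34 (adjusted p = 0.00135), and GSS, glutathione synthetase, the next gene tested on the other side, did not pass (0.041, adjusted p = 0.491).

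The promoter windows of ACSS2 and ACLY, the genes with the largest and the smallest change of the 5, are shown from RefSeq (GRCh38.p14), from 250 bases before to 50 after a transcription start. Windows for 4 of the 5 genes were used, and that of FASN was not used here. The ACSS2 windows are chr20:34874739-34875038 and chr20:34876362-34876661 on the plus strand, and the ACLY window is chr17:41918902-41919201 on the minus strand, each 5′ to 3′. ACLY has 2 start sites listed, and the window of the other one, which overlaps this one for most of its length, is not shown. Capitals mark matches on either strand to CCAAT, the box bound by NF-Y, and to GGGCGG, the box bound by Sp1, both partners of SREBPs at lipid gene promoters.
ACSS2, upstream start: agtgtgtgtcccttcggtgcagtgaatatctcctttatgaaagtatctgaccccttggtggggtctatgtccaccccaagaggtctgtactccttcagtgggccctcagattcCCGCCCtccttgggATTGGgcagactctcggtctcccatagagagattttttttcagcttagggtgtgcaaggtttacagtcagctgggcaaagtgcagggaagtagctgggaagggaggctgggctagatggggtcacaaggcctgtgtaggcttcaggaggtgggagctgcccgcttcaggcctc
ACSS2, downstream start: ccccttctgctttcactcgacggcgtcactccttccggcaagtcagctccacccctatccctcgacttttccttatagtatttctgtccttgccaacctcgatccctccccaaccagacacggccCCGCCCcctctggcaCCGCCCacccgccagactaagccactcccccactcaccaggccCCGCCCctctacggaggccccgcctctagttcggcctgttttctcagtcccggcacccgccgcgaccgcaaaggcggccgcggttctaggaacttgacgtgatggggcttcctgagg
ACLY: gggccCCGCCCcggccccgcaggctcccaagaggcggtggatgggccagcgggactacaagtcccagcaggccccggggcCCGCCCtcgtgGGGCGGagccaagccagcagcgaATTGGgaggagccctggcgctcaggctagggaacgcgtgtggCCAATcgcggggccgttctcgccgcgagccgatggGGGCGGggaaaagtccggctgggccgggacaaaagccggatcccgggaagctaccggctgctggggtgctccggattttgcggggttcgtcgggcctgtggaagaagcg
The upstream ACSS2 window held 1 CCAAT and 1 GGGCGG match, the downstream one 0 and 3, and the ACLY window 2 and 4, with no overlap among them. Of 35116 promoter windows of the same length, 34.6% held CCAAT and 45.0% held GGGCGG. The sterol element TCACNCCAC was found in 1.13% of them and in none of the windows of ACSS2, ACLY, ACACA and ACACB, which says only that these letters are not there.

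ACACA, the cytosolic acetyl-CoA carboxylase (ENSG00000278540, chromosome 17, 37084988 to 37406818, minus strand), rose by a small amount. It gave 10253, 13746 and 13221 normalised counts in the IPI-9119 libraries and 8664, 10292 and 10303 in the DMSO libraries. IPI-9119 replicate 1 fell just below the upper 2 DMSO libraries, so the groups overlap. ACACA averaged 12407 ± 1883 with IPI-9119 and 9753 ± 943 with DMSO (SD, n = 3). On the log2 scale the change was 0.34 (95% interval 0.080 to 0.60, adjusted p = 0.0281). The call was lost without IPI-9119 replicate 2 (adjusted p = 0.0851) or 3 (0.0550) and without DMSO replicate 1 (0.0707) or 2 (0.0540), and also with quantile scaling (0.134) or no trend and no robust moderation (0.0803). ACACA has 13008 nt of exons, and after the length and GC correction it stood at 0.75 (adjusted p = 5.3e-09).

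ACACB, the mitochondrial carboxylase (ENSG00000076555, chromosome 12, 109116595 to 109268226, plus strand), was measured with few reads. It had 70, 73 and 62 reads in the IPI-9119 libraries and 62, 59 and 67 in the DMSO libraries. After scaling these were 73.8, 79.6 and 68.2 normalised counts with IPI-9119 and 55.4, 55.7 and 61.5 with DMSO, which do not overlap. The log2 fold change of 0.35 (95% interval -0.014 to 0.72, adjusted p = 0.0862) did not pass, although it was as large as that of ACACA. With no trend and no robust moderation it did (adjusted p = 0.0125). ACACB, with 14505 nt of exons, is the longest of the 5 and stood at 1.09 after the length and GC correction (adjusted p = 5.1e-05). That correction called 4 of the 5 genes, all higher, against 64.8% of all genes called, 30.7% higher and 34.1% lower.

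**Figure D3:**
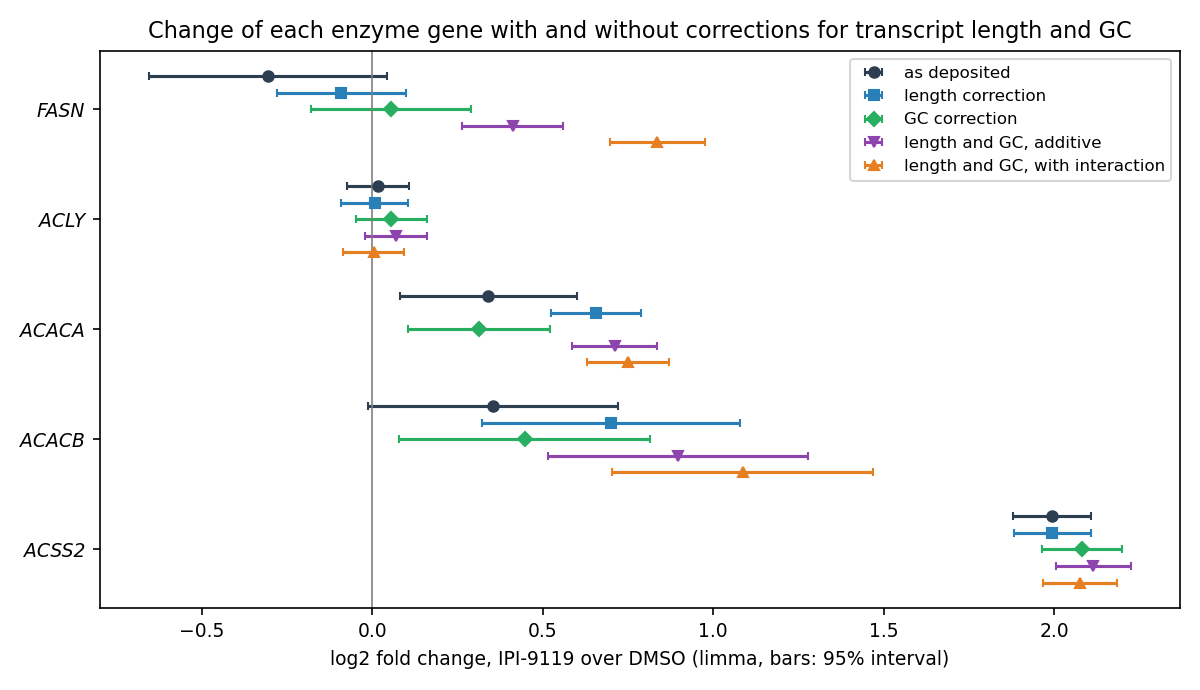
Log2 fold change, IPI-9119 over DMSO (horizontal), of each enzyme gene as deposited and after 4 corrections for transcript length and GC content, with bars for limma's 95% interval. ACSS2 stays near 2 and ACLY near 0 under all those shown, ACACA and ACACB lie further right after corrections for length, and FASN moves from -0.31 to 0.84.

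Per kilobase of merged exons the order of levels was the same in both groups, with ACLY highest, then FASN, ACACA, ACSS2 and ACACB. In IPI-9119 libraries these were 2868 ± 70.8, 1287 ± 249, 954 ± 145, 581 ± 7.62 and 5.09 ± 0.394 normalised counts per kb (SD, n = 3). In DMSO libraries they were 2835 ± 54.6, 1574 ± 151, 750 ± 72.5, 146 ± 5.06 and 3.97 ± 0.239. FASN and ACACA overlapped in the IPI-9119 libraries and not in the DMSO libraries, and no other neighbours in the order overlapped in either group. The order was the same when the longest transcript was used in place of merged exons.

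Ratios within a library do not depend on its scaling. FASN stood above ACACA by 0.34, 0.42 and 0.51 on the log2 scale of counts per kb in the IPI-9119 libraries and by 1.08, 1.11 and 1.03 in the DMSO libraries. The groups did not overlap, and the spread of this ratio was smaller than that of FASN alone, since both genes were lowest in replicate 1 of each group. The difference between groups was -0.65 (exact permutation test, two-sided, p = 0.1, the smallest that 3 against 3 libraries allow), and 0.087 after the length and GC correction. FASN over ACLY gave -1.48, -1.03 and -1.01 with IPI-9119 and -0.98, -0.74 and -0.84 with DMSO, a difference of -0.32 (exact permutation p = 0.1). After the correction that difference was 0.83, again with no overlap (exact permutation p = 0.1). Without IPI-9119 replicate 1 the uncorrected difference was -0.17.

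ACSS2 made up a larger share of the acetyl-CoA producing pair in the IPI-9119 libraries. Its share of ACLY plus ACSS2, in counts per kb, was 16.8% ± 0.182 in IPI-9119 libraries and 4.90% ± 0.175 in DMSO libraries (SD, n = 3, exact permutation p = 0.1). The groups lay far apart, and this is a share of transcripts, not of enzyme or of acetyl-CoA made. The share of ACACB in the carboxylase pair was 0.539% ± 0.0926 with IPI-9119 and 0.529% ± 0.0440 with DMSO, with overlapping groups (exact permutation p = 1). The sign of that difference turned without IPI-9119 replicate 1 (-0.040 percentage points) and without DMSO replicate 2 (-0.012), and the mitochondrial form was at a trace level in both groups. After the length and GC correction the share was 0.605% ± 0.111 with IPI-9119 and 0.471% ± 0.0433 with DMSO, with no overlap and a difference of 0.135 percentage points (exact permutation p = 0.1).

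**Figure D4:**
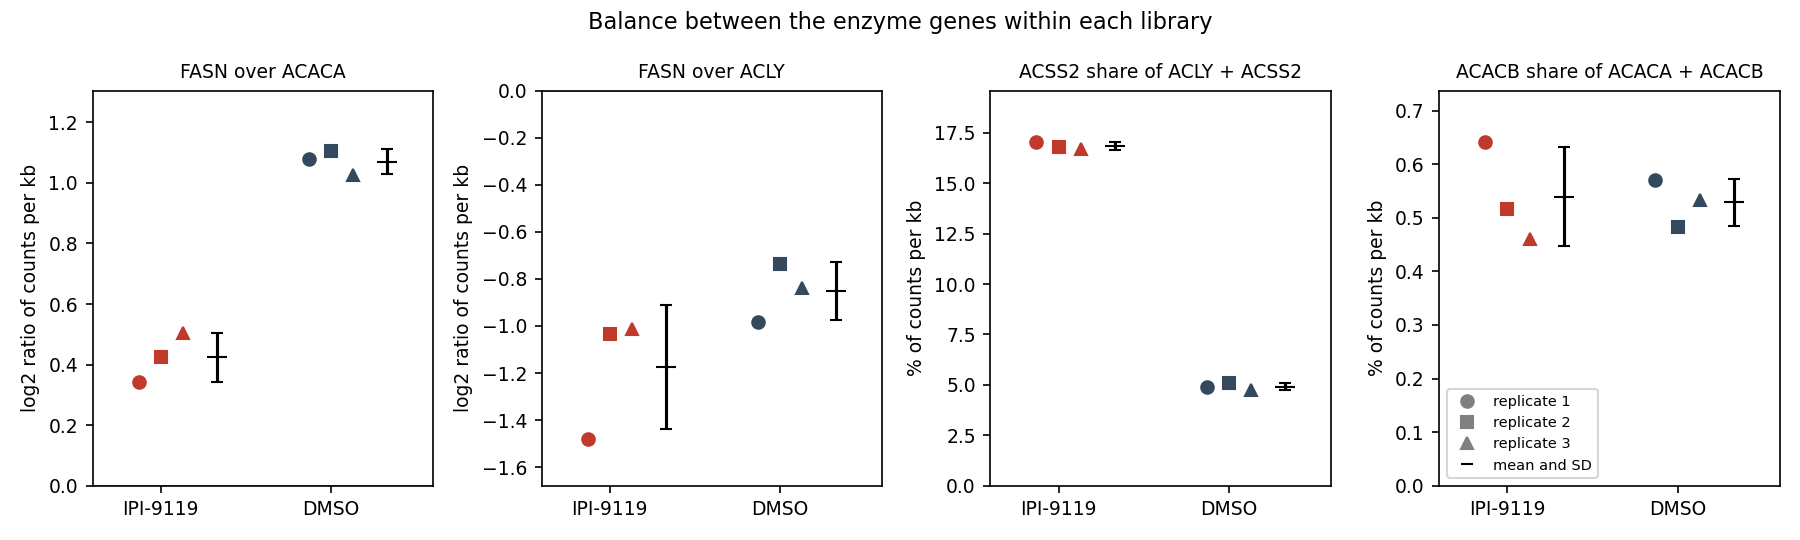
Log2 ratios (FASN over ACACA, FASN over ACLY) and shares in % (ACSS2 of ACLY + ACSS2, ACACB of ACACA + ACACB) of counts per kb in each library, IPI-9119 on the left and DMSO on the right of each panel, with bars for the mean ± SD. The first 3 panels show no overlap between groups, with the ACSS2 share at 16.8% against 4.90%, while the ACACB share overlaps.

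Counts over the related gene lists stand beside 31.3% of all genes called higher and 31.4% called lower, or 30.7% and 34.1% after the length and GC correction, and no list was tested against other genes. Of 13 genes tested that make, use or carry citrate, acetate or related metabolites, 8 rose, 2 fell and 3 did not pass. Their median log2 fold change was 0.23. After the correction 6 were higher, 2 lower and 5 not past. The mitochondrial NADP isocitrate dehydrogenase IDH2 rose to 3156 ± 80.1 normalised counts with IPI-9119, against 1986 ± 69.5 with DMSO (log2 fold change 0.67). The lactate exporter SLC16A3 rose too (0.59, and 1.52 after the length and GC correction), and the carnitine acetyltransferase CRAT (-0.55) and the monocarboxylate importer SLC16A1 (-0.16) fell. Among the 3 that did not pass were both relatives of ACSS2 that work in mitochondria, named after their values were seen. ACSS1 averaged 445 ± 10.8 normalised counts with IPI-9119 and 491 ± 39.7 with DMSO (adjusted p = 0.164), and ACSS3 44.9 ± 10.4 and 34.3 ± 7.44 (adjusted p = 0.209).

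Genes that control acetyl-CoA carboxylase or use its product had shares near those of all genes, since 6 of 16 tested rose, 6 fell and 4 did not pass (median 0.093). After the length and GC correction 6 were higher, 3 lower and 7 not past, and 2 of those that had fallen were among the higher. The biotin transporter SLC5A6 (0.86) and biotinidase BTD (0.38), which recycles the cofactor of the carboxylases, rose. HLCS, the biotin ligase gene of this list, fell (-0.55, adjusted p = 8.2e-06, and -0.46 after the correction) and was named after its values were seen. The steepest fall was that of CPT1A, the carnitine palmitoyltransferase that malonyl-CoA inhibits, at 398 ± 54.9 normalised counts with IPI-9119 and 1732 ± 297 with DMSO (log2 fold change -2.12). MLYCD, which destroys malonyl-CoA, fell (-0.71), a call lost after the length and GC correction (0.13, adjusted p = 0.290). THRSP, a lipogenic protein that works with the carboxylase regulator MID1IP1, had 61 reads over the IPI-9119 libraries and 6 over the DMSO libraries. It was named after its values were seen. THRSP averaged 22.0 normalised counts with IPI-9119 and 1.85 with DMSO. It reached the mean of 10 needed for testing only through the IPI-9119 libraries, so its call is no support. Of 5 other biotin carboxylase genes, PCCB rose (0.15), PC, the pyruvate carboxylase that refills citrate precursors, fell (-1.48) and 3 did not pass, and their median was -0.055. After the correction 1 was higher, 3 were lower and 1 did not pass (median -0.13).

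In a list of 10 genes tested, OLAH encodes a thioesterase and the rest encode proteins that modify the enzymes. Of the 10, 1 rose, 5 fell and 4 did not pass (median -0.30), so that the share called was near that of all genes. After the length and GC correction 3 were higher, 5 lower and 2 not past (median -0.27). UBR4, a ubiquitin ligase reported to act on ATP citrate lyase, fell to 465 ± 117 normalised counts with IPI-9119, against 1116 ± 103 with DMSO (-1.29, and -0.48 after the length and GC correction). SIRT1, a deacetylase that in mouse activates acetyl-CoA synthetase, fell by 0.64 on the log2 scale. AASDHPPT, which attaches the phosphopantetheine arm that fatty acid synthase needs, fell by 0.46 (adjusted p = 1.8e-06), and OLAH was the 1 that rose. Both were named after their values were seen. OLAH, a thioesterase that in rat mammary gland releases shorter chains from fatty acid synthase, had 85, 68 and 79 reads in the IPI-9119 libraries and 0, 4 and 6 in the DMSO libraries. The groups lay far apart for this gene. It reached the mean of 10 normalised counts needed for testing only through the IPI-9119 libraries, so its call is no support.

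Transcription factors of lipogenesis and their sterol-sensing partners were mixed, as 5 of 17 tested rose, 7 fell and 5 did not pass (median -0.11). The median turned to 0.031 with the length and GC correction, with 7 higher, 8 lower and 2 not past. INSIG1, which holds SREBPs in the endoplasmic reticulum and is itself an SREBP target, rose to 40015 ± 1338 normalised counts with IPI-9119, against 5303 ± 175 with DMSO (2.92), and INSIG2 rose by 0.56. The NF-Y subunit gene NFYC fell (-0.85). The SREBP genes themselves did not pass and were named after their values were seen. SREBF1 averaged 3420 ± 334 normalised counts with IPI-9119 and 3743 ± 266 with DMSO (-0.13, adjusted p = 0.124, but 0.72 and adjusted p = 3.9e-10 after the length and GC correction). SREBF2 averaged 5665 ± 569.7 and 6118 ± 345 (-0.11, adjusted p = 0.162, but 0.37 and adjusted p = 2.2e-06 after it).

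A list of genes linked to the supply of NADPH, the reductant of fatty acid synthase, had 8 genes tested. Not all of these make NADPH for the synthase. Of the 8, 5 rose, 1 fell and 2 did not pass (median 0.25). Corrected for length and GC content, 5 were higher, 0 lower and 3 not past (median 0.596). Malic enzyme ME1 stood at 13359.5 ± 164 normalised counts with IPI-9119 and 5522 ± 31.7 with DMSO (1.27), and PGD of the pentose phosphate pathway at 11682 ± 321 and 4906 ± 53.9 (1.25). MTHFD1, of folate metabolism, fell by 0.14, a call lost after the length and GC correction (0.05, adjusted p = 0.472). A further list covered genes that elongate, desaturate or activate fatty acids, not all of which act on palmitate. Of its 20 genes tested, 15 rose, 3 fell and 2 did not pass (median 0.75). The counts were the same after the correction, with a median of 0.62. The elongase ELOVL6, which acts directly on palmitoyl-CoA, stood at 757 ± 41.2 with IPI-9119 and 25.6 ± 4.95 with DMSO (4.85), and the acyl-CoA synthetase ACSL4 rose by 3.11, while ELOVL2 (-1.04) and ELOVL7 (-0.31) fell.

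All 13 genes tested from a list of SREBP targets, most of them sterol genes, rose (median 1.89), among them HMGCS1 (2.92) and MSMO1 (2.59). ACSS2, at 1.99, lay above that median, and FASN, ACLY, ACACA and ACACB, at -0.31, 0.017, 0.34 and 0.35, lay below it. After the length and GC correction FASN, ACACA and ACACB stood at 0.84, 0.75 and 1.09, against a median of 1.87 for that list. The separate mitochondrial route of fatty acid synthesis had 6 of 9 genes that rose, 1 that fell and 2 that did not pass (median 0.26). After the correction 4 were higher, 1 lower and 4 not past (median 0.034). Among those named by the same rule were its acyl carrier protein NDUFAB1 (0.61) and the lipoate synthase LIAS (0.48), which rose, and the lipoyltransferase LIPT1 (-0.62), which fell.

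**Figure D5:**
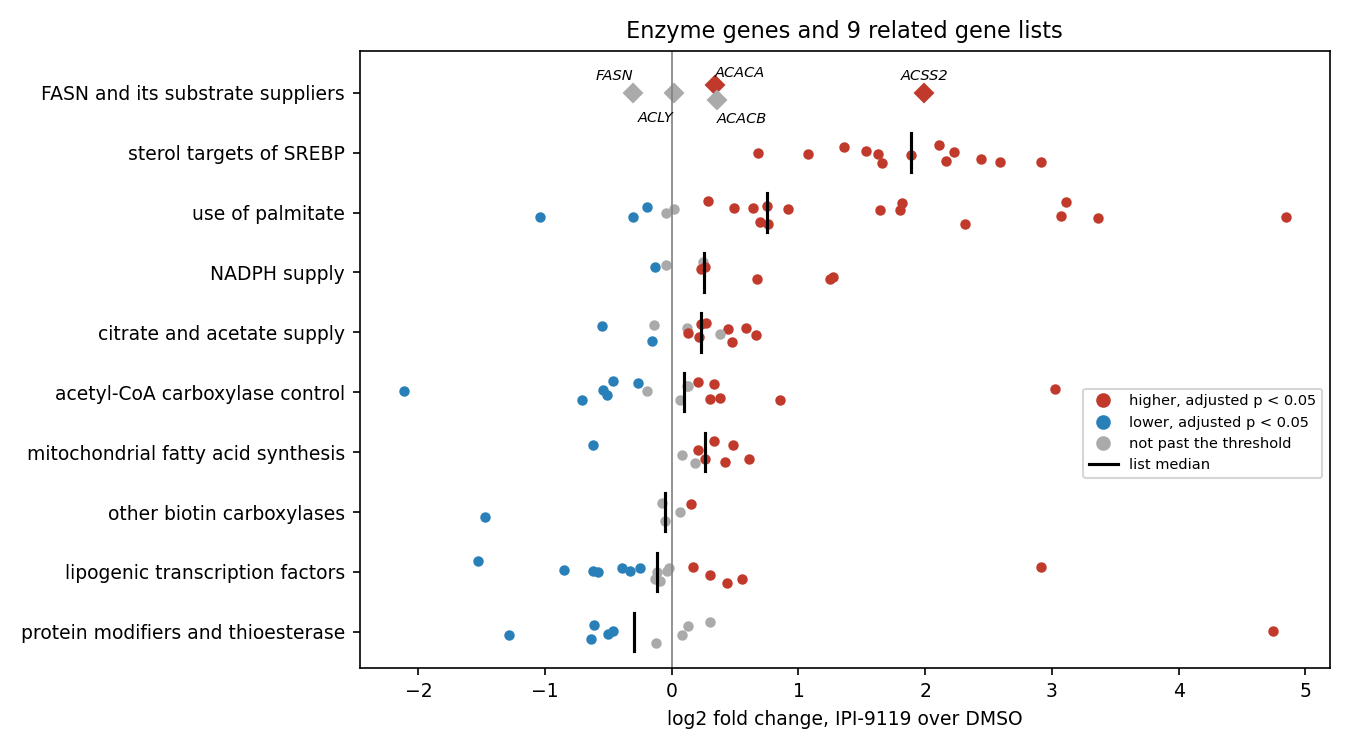
Log2 fold change, IPI-9119 over DMSO (horizontal), of the 5 enzyme genes (diamonds) and of the tested members of 9 related lists (circles), coloured by limma's call, with black bars for list medians. FASN, ACLY, ACACA and ACACB lie left of the median (1.89) of the 13 genes in the list labelled sterol targets of SREBP, and ACSS2 lies just right of it.

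FASN, ACLY and ACACA lie on chromosome 17, and of the 6 genes tested nearest to them 3 fell and 3 did not pass. Over all genes 31.4% were called lower and 31.3% higher, and no test of neighbouring genes was made. Beside FASN, DUS1L, a tRNA dihydrouridine synthase gene, stood at 0.084 on the log2 scale (adjusted p = 0.234) and CCDC57 at 0.046 (adjusted p = 0.583). Neither passed, and both stood higher after the length and GC correction, at 0.71 and 0.96. Beside ACACA, AATF fell (-1.09) and so did TADA2A (80.8 normalised counts with IPI-9119, 163 with DMSO), and beside ACLY, ODAD4 fell (-1.32) and KLHL11 did not pass (-0.11, adjusted p = 0.517). Beside ACACB, the uracil DNA glycosylase gene UNG rose (0.57) and FOXN4 did not pass (0.38, adjusted p = 0.383).

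The genes most like FASN across the 6 libraries, by Pearson's correlation of log2(normalised count + 1) over 10363 genes with a mean of at least 100, were TAOK1 (0.996), FOXN3 (0.990) and ARIH1 (0.990). TAOK1 gave 1621, 2115 and 2177 normalised counts in the IPI-9119 libraries and 2057, 2449 and 2369 in the DMSO libraries, with replicate 1 lowest in each group as for FASN. The nearest for ACLY was USP37 (0.990), for ACACA SPIRE1 (0.997), for ACACB TMUB2 (0.9989) and for ACSS2 SRD5A1 (0.9997), a steroid reductase gene. With 6 points that share group, scaling and library, and so many genes searched, such values describe these libraries only.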

How the data were processed

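Polyadenylated RNA was sequenced from 3 IPI-9119 and 3 DMSO libraries. The deposited values are a signal: the authors scaled reads per gene by 1 factor per library, judging by the values. All of them (100%) were whole multiples of 1 read within 0.01 read, which gave the reads back. Per the submitters' processing notes, which give neither roles nor order, the tools were Trimmomatic 0.36, STAR 2.5.2b, featureCounts, Subread 1.5.2 and DESeq2, and the build GRCh38. The annotation and the strand setting are not given in the sources used here.

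Genes with a mean of at least 10 were tested (19 of 14456 were removed) on log2(value + 1) by limma 3.58.1 (R 4.3.3), whose moderation used a mean trend and was robust. Limma called 9061 genes. Run on the reads so recovered, the quasi-likelihood test of edgeR 4.0.16 called 9081 and DESeq2 1.42.0 called 8460. Exonic length (all exons merged) and GC content (longest transcript) came from GENCODE 29 and were known for 99.6% of genes tested. The correction subtracted, per library, a fit of splines with 4 degrees of freedom for each and of their interaction. It was fitted to the deviation of every gene from its mean over the libraries. All p-values and intervals after a correction leave out the error of that fit. Limma with and without the length and GC correction was run on simulated counts with no trend or with an additive trend. The counting models edgeR and DESeq2 were run only on those with no trend. No interaction of length and GC content was simulated, so the simulation is no check of the size of the correction for FASN. No replicate pair was within sampling noise, with chi-square values of 2.29 to 9.57 per degree of freedom. The 5 genes, the lists, the corrections and the tests were chosen with earlier results of these data known. Genes of a list named with values are its 2 largest called rises and falls with a mean of at least 100, the exceptions being named as such, and 1 gene that the rule picks is not reported here. The correction without interaction, that by longest transcript and edgeR with the block were added after seeing the data.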

Additional observations from a re-analysis of the deposited data

How the results depend on the processing

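ACSS2 kept its direction and its call in all 23 alternatives (log2 fold change 1.96 to 2.11). FASN was -0.40 to -0.13 without any 1 library and reversed to 0.84 with the length and GC correction (also together with the replicate block), 0.055 with GC content alone, 0.41 with no interaction and 1.40 by longest transcript. ACLY, 0.0028 to 0.038 without any 1 library, was -0.014 with quantile scaling and 0.13 by longest transcript, where it passed. ACACA, 0.26 to 0.47 without any 1 library, was not called with quantile scaling (0.33) or with no trend and no robust moderation (0.34). ACACB, 0.30 to 0.41 without any 1 library, passed with no trend and no robust moderation (0.35) and after corrections for length and GC (1.09, also with the block), length (0.70), GC content (0.45), both without interaction (0.90) and longest transcript (1.151). The number of the 5 genes called was 2, against 1 with quantile scaling and 1 to 2 without any 1 library. It was 3 with the replicate block by limma or edgeR (2 higher, 1 lower) and after correction for length or GC content alone (3 higher). It was 4 after the length and GC correction with or without the block and without interaction, and 5 by longest transcript. FASN minus ACLY reversed to 0.83 and FASN minus ACACA to 0.087 with that correction. They were -0.40 to -0.17 and -0.69 to -0.61 without any 1 library, and the ACACB share differed by -0.040 to 0.050 percentage points, and by 0.135 with the length and GC correction. The cause of these changes was not tested. Calls over all genes ran from 8032 to 9772. The median of the lipogenic transcription factors turned to 0.031 with that correction. Of the lists, other biotin carboxylases ranged from 1 to 5 calls and mitochondrial fatty acid synthesis from 4 to 7 over the alternatives.

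With the replicate number as a block FASN was called (-0.31, adjusted p = 2.7e-05 by limma; -0.31, adjusted p = 5.5e-06 by edgeR), and the block changed no other call among the 5 genes. It also called SREBF1 (-0.13, adjusted p = 0.0142) and SREBF2 (-0.11, adjusted p = 0.0148) lower. The deviations of same-numbered libraries from their group means correlated at 0.141, 0.063 and 0.0044, so the numbers were not taken as pairs, and IPI-9119 replicate 3 correlated best with DMSO replicate 2. Exact sign-flip permutation of 3 pairs cannot go below p = 0.25. ACACB rests on 59 to 73 reads per library, which limits what can be seen for it.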
